A study of Arabidopsis thaliana with 9 samples.

Results

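Gene expression in Arabidopsis thaliana roots after 24 h of induction of the transcription factor PERIANTHIA (PAN) was compared with that at 0 h. Samples were chosen by the time in their titles, 3 biological replicates at 24 h and 3 at 0 h, which are 6 of the 9 samples of the series. The other 3 were taken at 6 h and enter where a time course is given. All samples were of ecotype Col-0 and carried the XVE:PAN transgene, so the 0 h group is the same line before induction. In an XVE line an estradiol-activated regulator switches on the gene placed behind its target promoter. Seedlings raised with 1% sucrose were transferred to plates that also held 10 uM β-estradiol, and all were harvested after 5 days of growth in total. Neither a mock treatment nor a line without the transgene was among the samples, so PAN induction, estradiol, transfer and elapsed time cannot be told apart. The labels name the tissue both as whole root and as material cut about 0.5 cm from the tip.

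PAN is a basic leucine zipper factor of the TGA family, known from control of floral organ number and also active in the root stem cell niche. TGA factors bind DNA elements with the core TGACG. The root tip holds a niche of slowly dividing cells, a meristem fed by it, and a zone where cells elongate and take on fates such as root hair or endodermis. Division draws on ribosome production and chromatin synthesis, whereas elongation draws on wall loosening and water uptake.

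The deposited table gives 1 value per gene and time, taken as FPKM, a read abundance scaled by transcript length and library size, into which the authors had pooled the replicates. No spread between replicates can therefore be given, and the q-value in the authors' deposited table is the only measure of replicate error. A change is the difference in log2(value + 1), 24 h minus 0 h, which understates the change of low genes. Genes with a mean of at least 1 over the 3 times were used, 17841 of 33201 rows, and a gene was called where its q-value was below 0.05. Called genes named below have the smallest q-value found in the authors' deposited table, 0.000358, unless another is given. Of the genes used, 8504 were called (47.7%), 4251 higher (23.8%) and 4253 lower (23.8%), and the median change was 0.05. Counts in gene lists are set against these shares. Among called genes, 77.3% had a 6 h value between those at 24 h and 0 h. Calling picks genes whose values at 24 h and 0 h differ, which favours such a place.

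PAN itself (AT1G68640) had 385 at 24 h and 1.03 at 0 h, a change of 7.57, and stood at 688 at 6 h. The value does not separate the transgene from the resident gene, and 28.5% of the 100-base stretches of its transcript also occur in another gene. Defining markers of several root tissues were present at 0 h: the endodermal gene CASP1 stood at 792, the root hair gene RSL4 at 90.1 and the root cap gene NAC015 at 55.3. The quiescent centre gene WOX5 stayed below the filter, with 0.321 at 24 h and 0.268 at 0 h.

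Changes at 24 h followed transcript length. Of 2555 genes with a longest transcript under 1000 bp, 42% were called higher and 8.81% lower, with a median change of 0.57. From 1000 to below 3000 bp the shares were 23.3% and 22.8% of 12975 genes, with a median change of 0.05. At 3000 bp or more, 4.41% of 1971 genes were called higher and 51.4% lower, with a median change of -0.46. The running median over 50 bins of length was subtracted from each change to give a trend-removed change. Of 8379 called genes with a length, 8215 kept their sign, 4111 of 4181 higher and 4104 of 4198 lower. The origin of the trend was not tested. Each list of nuclear genes below is therefore given with its median change before and after removal of the trend.

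**Figure D1:**
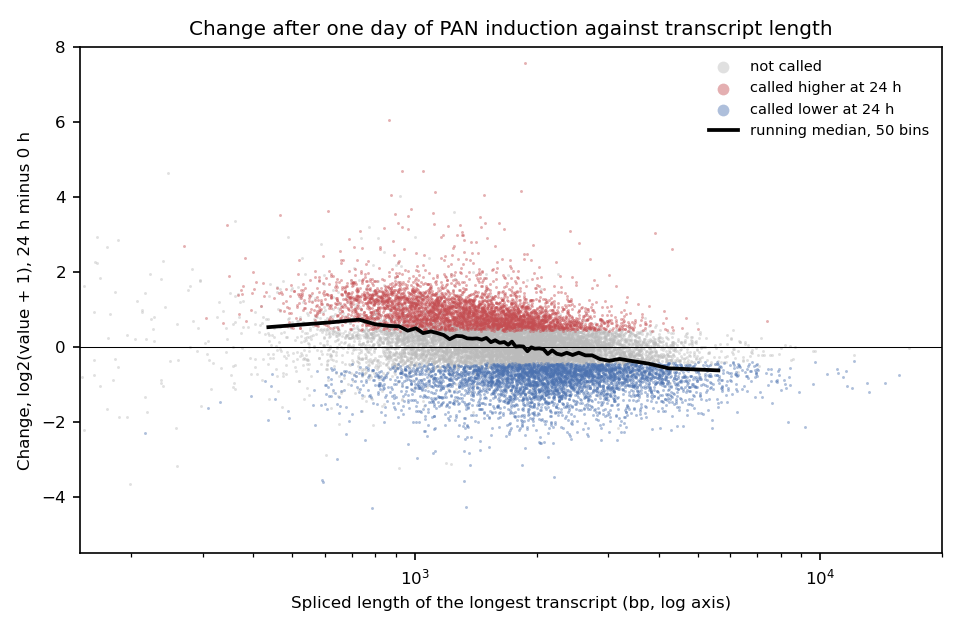
Change in log2(value + 1), 24 h minus 0 h, of each gene used (y axis) against the spliced length of its longest transcript in bp (x axis, log scale), coloured by call, with the running median over 50 bins as a line. The line lies above 0 for short transcripts, where 42% of those under 1000 bp were called higher, and below 0 for long ones, where 51.4% of those of 3000 bp or more were called lower.

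Families of long transcripts were read within their length class. All 5 primary wall cellulose synthase genes exceed 3000 bp, and 0 of 5 were called higher (0%) and 5 lower (100%), with a median change of -1.47, which was -0.91 with the trend removed. ABC transporters, which are membrane pumps, were called lower in 33 of 38 members of 3000 bp or more (86.8%), against 51.4% of all genes of that length. Over all lengths 6 of 79 were called higher (7.59%) and 41 lower (51.9%), with a median change of -0.45, which was -0.22 with the trend removed. Leucine-rich repeat receptor kinases, which perceive peptides and other signals at the cell surface, were called lower in 35 of 70 such long members (50%), close to the share of all genes of that length. Over all lengths 12 of 131 were called higher (9.16%) and 61 lower (46.6%), with a median change of -0.45, which was -0.11 with the trend removed.

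Kinesins, the microtubule motors, were called lower in 10 of 27 members of 3000 bp or more (37%), and over all lengths 6 of 40 were called higher (15%) and 11 lower (27.5%), with a median change of 0.00, which was 0.33 with the trend removed. Helicases, which unwind nucleic acids, were called lower in 12 of 43 such members (27.9%), and over all lengths 14 of 95 were called higher (14.7%) and 17 lower (17.9%), with a median change of 0.00, which was 0.28 with the trend removed. The medians of 3 families of shorter transcripts moved toward or past 0 instead. Mitochondrial respiratory chain subunits under 1000 bp were called higher in 14 of 35 members (40%), against 42% of all genes of that length, and over all lengths 21 of 81 were called higher (25.9%) and 4 lower (4.94%), with a median change of 0.36, which was -0.10 with the trend removed. For proteasome subunits, which form the protease of ubiquitin-marked proteins, 3 of 25 were called higher (12%) and 3 lower (12%), with a median change of 0.25, which was -0.02 with the trend removed. From 1000 to below 3000 bp they were called higher in 3 of 20 members (15%), against 23.3% of all genes of that length. For nuclear photosynthesis genes 18 of 51 were called higher (35.3%) and 0 lower (0%), with a median change of 0.45, which was 0.12 with the trend removed. Those under 1000 bp were called higher in 4 of 16 members (25%), against 42% of all genes of that length, and those from 1000 to below 3000 bp in 14 of 35 members (40%), against 23.3%.

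Promoters were searched for elements of the TGA family and of growth genes, on both strands, from 250 bases before to 50 after the start of the longest transcript. Such a window, from RefSeq build TAIR10.1, was available for 17500 genes. The TGA core TGACG was present in 23.3% of promoters of genes called higher, 24.5% of those called lower and 24.1% of all. Its palindrome TGACGTCA, which contains the core, was present in 0.718% of promoters of genes called higher, 0.762% of those called lower and 0.703% of all. Genes with the core were called higher in 23.2% and lower in 24.4% of cases, and genes without it in 24.1% and 23.9%. The shares of both TGA elements were thus near the background in each direction. Single lists varied more widely, and the following were picked after their shares were seen. The core stood in 6 of 8 clock promoters (75%), 6 of 9 root cap promoters (66.7%), 20 of 39 histone promoters (51.3%) and 13 of 29 glutathione transferase promoters (44.8%), and in 1 of 25 proteasome promoters (4%) and 1 of 22 aquaporin promoters (4.55%), against 24.1% of all.

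The telo box AAACCCTA, known from ribosomal protein and nucleolar genes, was present in 10.8% of promoters of genes called higher, 2.76% of those called lower and 5.99% of all. For the site II element TGGGCC the shares were 27.1%, 10.8% and 19.3% in the same order, and for its form TGGGCT 23.2%, 9.93% and 17.2%. The telo box stood in 11 of 15 nucleolar promoters (73.3%) and 114 of 302 ribosomal protein promoters (37.7%). With both of those lists left out, genes called higher still held the telo box in 8.51% and TGGGCC in 24.7%. Under 1000 bp the telo box stood in 14.3% of genes called higher and 3.11% of those called lower, against 9.04% of all. From 1000 to below 3000 bp the shares were 9.67%, 2.74% and 5.48% in the same order. At 3000 bp or more they were 6.9%, 2.76% and 5.38%. The 6.9% stands for only 6 of 87 promoters, too few to show an excess in that class. A match describes letters in the window and says nothing of binding.

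Cell cycle elements were rare over all genes. CCAACGG, part of the mitosis-specific activator (MSA) element bound by MYB factors, was present in 2.8% of promoters of genes called higher, 1.69% of those called lower and 2.19% of all, and in 8 of 20 promoters of the mitosis list (40%). Its core CAACGG, contained in the longer form, was present in 8.21% of promoters of genes called higher, 7.1% of those called lower and 7.27% of all, and in 17 of 39 histone promoters (43.6%). The E2F form TTTCCCGC is named after a family of regulators of DNA synthesis genes. It was present in 0.933% of promoters of genes called higher, 0.357% of those called lower and 0.811% of all. Genes not called held it in 0.965%, so those called higher showed no excess over them. In DNA replication genes it stood in 5 of 15 promoters (33.3%). A second E2F form, TTTGGCGC, was present in 0.622% of promoters of genes called higher, 0.333% of those called lower and 0.486% of all. The sugar box TATCCA was present in 17.1% of promoters of genes called higher, 14.7% of those called lower and 15.8% of all, and the G-box CACGTG in 8.61% of promoters of genes called higher, 8% of those called lower and 8.73% of all.

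The 250 bases before the start are printed for 6 called genes, to show each element in its setting. Within a list, or within a direction for the TGA palindrome, the gene with the largest change that held the element in this stretch was taken. Capitals mark the element on either strand, and each sequence runs 5′ to 3′ along the strand of the gene. CYC1BAT, also called CYCB1;2, is a mitotic cyclin gene on the minus strand (AT5G06150, chr5:1861657-1861906), and CCAACGG is marked.
CYC1BAT: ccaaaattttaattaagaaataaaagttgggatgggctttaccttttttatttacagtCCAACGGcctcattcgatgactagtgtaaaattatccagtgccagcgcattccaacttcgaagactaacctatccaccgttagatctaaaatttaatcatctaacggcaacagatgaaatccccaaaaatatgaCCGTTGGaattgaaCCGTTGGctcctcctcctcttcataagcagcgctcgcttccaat
ORC2 encodes a subunit of the origin recognition complex, on the plus strand (AT2G37560, chr2:15758384-15758633), and TTTCCCGC is marked.
ORC2: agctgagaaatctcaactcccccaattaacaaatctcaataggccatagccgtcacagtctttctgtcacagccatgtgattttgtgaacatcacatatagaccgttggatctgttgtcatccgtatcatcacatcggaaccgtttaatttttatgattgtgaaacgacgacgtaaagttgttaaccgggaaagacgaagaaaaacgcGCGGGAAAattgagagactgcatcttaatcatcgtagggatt
FIB1 encodes fibrillarin, a methyltransferase of ribosomal RNA, on the plus strand (AT5G52470, chr5:21293897-21294146), and the telo box is marked.
FIB1: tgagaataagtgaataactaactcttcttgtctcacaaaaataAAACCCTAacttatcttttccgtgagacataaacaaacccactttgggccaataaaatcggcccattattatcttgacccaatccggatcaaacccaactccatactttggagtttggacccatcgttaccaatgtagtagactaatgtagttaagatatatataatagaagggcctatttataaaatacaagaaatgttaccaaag
AT2G40205, of the ribosomal protein L41 family, lies on the minus strand (chr2:16792623-16792872), and the telo box and TGGGCC are marked.
AT2G40205: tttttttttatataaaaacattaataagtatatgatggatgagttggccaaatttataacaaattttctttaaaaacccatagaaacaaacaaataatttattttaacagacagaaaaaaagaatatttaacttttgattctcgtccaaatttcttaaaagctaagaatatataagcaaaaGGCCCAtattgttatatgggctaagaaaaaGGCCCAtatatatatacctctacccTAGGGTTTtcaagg
ERF2, an ethylene response factor gene on the minus strand (AT5G47220, chr5:19172957-19173206), was called higher and carries the TGA palindrome.
ERF2: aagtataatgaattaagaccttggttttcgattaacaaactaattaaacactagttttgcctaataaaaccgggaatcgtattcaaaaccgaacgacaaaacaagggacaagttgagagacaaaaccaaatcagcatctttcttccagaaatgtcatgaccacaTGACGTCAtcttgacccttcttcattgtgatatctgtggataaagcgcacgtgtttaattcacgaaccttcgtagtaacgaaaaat
CYP705A5, a cytochrome P450 gene on the plus strand (AT5G47990, chr5:19434508-19434757), was called lower and carries the same palindrome.
CYP705A5: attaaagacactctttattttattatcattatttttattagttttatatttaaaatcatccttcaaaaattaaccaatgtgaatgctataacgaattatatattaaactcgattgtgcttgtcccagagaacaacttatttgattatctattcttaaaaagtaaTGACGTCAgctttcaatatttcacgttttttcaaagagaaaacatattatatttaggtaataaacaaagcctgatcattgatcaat
CYC1BAT had 16.6 at 24 h and 6.93 at 0 h, a change of 1.15. ORC2 had 3.73 at 24 h and 1.82 at 0 h (q = 0.0103, authors' deposited table). AT2G40205 had 327 at 24 h and 87.2 at 0 h, a change of 1.90 (q = 0.01304, authors' deposited table), and 41.2% of its 100-base stretches also occur in another gene. ERF2 had 9.77 at 24 h and 0.363 at 0 h, a change of 2.98. CYP705A5 had 113 at 24 h and 329 at 0 h, a change of -1.53. ERF2 and CYP705A5 were picked to give a carrier of the TGA palindrome in each direction, so the pair does not test a preference. Over all genes with a window, the palindrome stood in 30 of 4180 promoters of genes called higher and 32 of 4198 of those called lower.

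**Figure D2:**
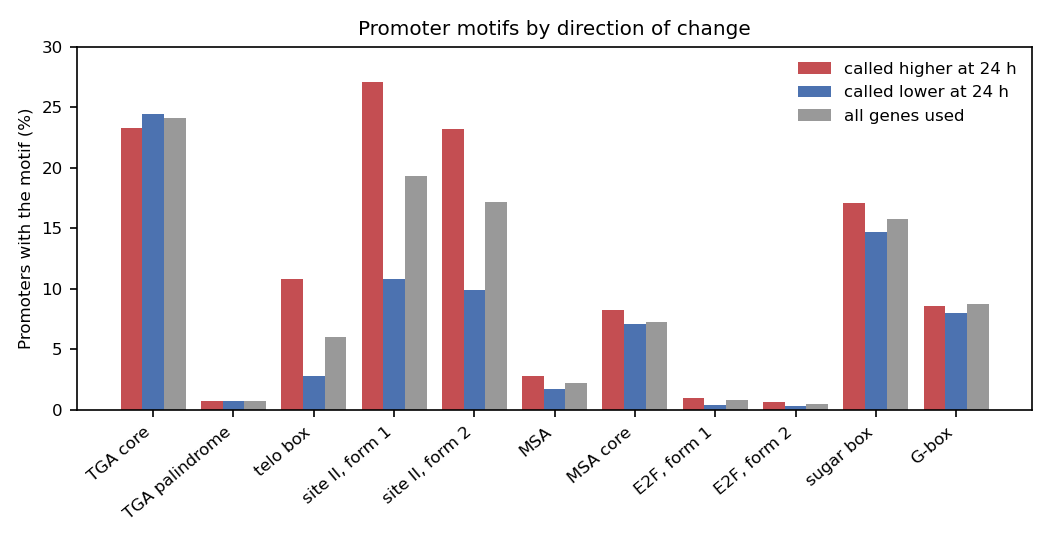
Share of promoters in percent (y axis) that hold each element (x axis) among genes called higher at 24 h, genes called lower at 24 h and all genes used. The TGA core stands at 23.3%, 24.5% and 24.1%, whereas the telo box stands at 10.8%, 2.76% and 5.99%.

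Among tissue markers, most genes of the stem cell niche and meristem list rose, and most of the root cap and root hair lists fell. In RNA from whole tissue, fewer cells of a type and less RNA per cell cannot be told apart. Of the 19 genes in the niche and meristem list 16 were used. In these, 13 of 16 were called higher (81.2%) and 0 lower (0%). The median change was 0.72, and 0.81 with the trend removed. AN3, a growth coactivator, had 63.7 at 24 h and 14.8 at 0 h, a change of 2.04. GRF4, a growth-regulating factor that works with such coactivators, had 13.6 at 24 h and 4.72 at 0 h, a change of 1.35. Both stood near their 0 h value at 6 h, at 18.4 and 4.94. BBM, a PLETHORA-type factor, had 2.77 at 24 h and 0.281 at 0 h (q = 0.000666, authors' deposited table) and was thus low at both times. AIL6, of the same family, had 10.8 at 24 h and 4.9 at 0 h, and 13.3% of its stretches also occur in another gene. The used genes of this list not called were SCR, JKD and UPB1, with changes of 0.34, 0.28 and 0.31.

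Root cap genes moved the other way. Of 10 in that list 9 were used, and 0 of 9 were called higher (0%) and 7 lower (77.8%), with a median change of -1.24, which was -1.54 with the trend removed. NAC015, the cap maturation factor BEARSKIN1, had 21.5 at 24 h and 55.3 at 0 h, a change of -1.32. NAC070, which is BEARSKIN2, had 12.5 at 24 h and 31.7 at 0 h. Both stood near their 0 h value at 6 h, at 50.1 and 31.6. CEL5, a cellulase of shed cap cells, had 11.1 at 24 h and 46.6 at 0 h, with 26.03 at 6 h. AT4G04460, listed as PASPA3, a protease marker of developmental cell death, had 14.97 at 24 h and 49.6 at 0 h, with 29.8 at 6 h. The last pair, unlike the NAC genes, stood well below their 0 h value by 6 h.

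In root hair genes 0 of 21 were called higher (0%) and 18 lower (85.7%), with a median change of -1.02, which was -1.09 with the trend removed. All 21 had a negative change, between -2.02 and -0.31. RSL4, the basic helix-loop-helix factor that drives hair growth, had 29.5 at 24 h and 90.1 at 0 h, a change of -1.58. RHD2, the NADPH oxidase of the hair tip, had 30.5 at 24 h and 127 at 0 h, a change of -2.02. PIP5K3, a lipid kinase of the tip, had 4.53 at 24 h and 17.9 at 0 h. CSLD3, a cellulose synthase-like enzyme of the hair wall, had 40.3 at 24 h and 101 at 0 h. The last 3 exceed 3000 bp, and with the trend removed their changes were -1.69, -1.41 and -0.74. In the list of non-hair fate genes, which set the hairless cell files, 0 of 9 were called higher (0%) and 1 lower (11.1%), with a median change of -0.01, which was -0.10 with the trend removed. The called gene was GL3, a basic helix-loop-helix factor, which had 3.61 at 24 h and 8.904 at 0 h.

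In the endodermis, the median changes of the Casparian strip and suberin lists differed in sign. For Casparian strip genes 0 of 12 were called higher (0%) and 5 lower (41.7%), with a median change of -0.48, which was -0.72 with the trend removed. CASP1, a scaffold protein of the strip membrane, had 536 at 24 h and 792 at 0 h, a change of -0.56 (q = 0.0236, authors' deposited table). CASP2 had 264 at 24 h and 367 at 0 h (q = 0.0395, authors' deposited table). CASP4 had 203 at 24 h and 299.7 at 0 h (q = 0.0106, authors' deposited table). CASP5, of the same scaffold family, had 81.5 at 24 h and 124 at 0 h (q = 0.00701, authors' deposited table). These transcripts of 893 to 1016 bp lie on the side of the length trend with positive medians, and with the trend removed the 4 changes lay between -1.17 and -0.95. For suberin genes 4 of 11 were called higher (36.4%) and 1 lower (9.09%), with a median change of 0.45, which was 0.62 with the trend removed. CYP86A1, a fatty acid hydroxylase of suberin synthesis, had 7.41 at 24 h and 0.648 at 0 h, a change of 2.35. The regulator MYB41 had 1.67 at 24 h and 0.477 at 0 h (q = 0.0242, authors' deposited table). The reductase FAR4 had 1.47 at 24 h and 0.5405 at 0 h (q = 0.0137, authors' deposited table). KCS20, an elongase of long-chain fatty acids, was the called fall and had 38.4 at 24 h and 72.98 at 0 h. Of the 11 suberin genes 9 had a positive change, but all 4 called rises stood below 1 at 0 h. Summed over the suberin list, the values were 155 at 24 h and 179 at 0 h.

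Vascular and lateral root lists had few calls. For xylem vessel genes 0 of 12 were called higher (0%) and 1 lower (8.33%), with a median change of -0.02, which was 0.00 with the trend removed. The called gene was MC9, a metacaspase of vessel cell death, which had 40.8 at 24 h and 84.3 at 0 h. Of 14 phloem genes only 4 reached the filter, and 0 of 4 were called higher (0%) and 0 lower (0%), with a median change of -0.15, which was 0.14 with the trend removed. BAM3, a receptor of phloem precursors, had 2.97 at 24 h and 3.76 at 0 h (q = 0.293, authors' deposited table). For lateral root initiation genes 0 of 6 were called higher (0%) and 2 lower (33.3%), with a median change of -0.63, which was -0.65 with the trend removed. ARF19, an auxin response factor of lateral root founding, had 4.83 at 24 h and 14.9 at 0 h. NPH4, its close relative ARF7, had 10.8 at 24 h and 26.1 at 0 h (q = 0.0291, authors' deposited table). Both belong to the long transcripts, and with the trend removed their changes of -1.45 and -1.20 became -0.88 and -0.63.

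**Figure D3:**
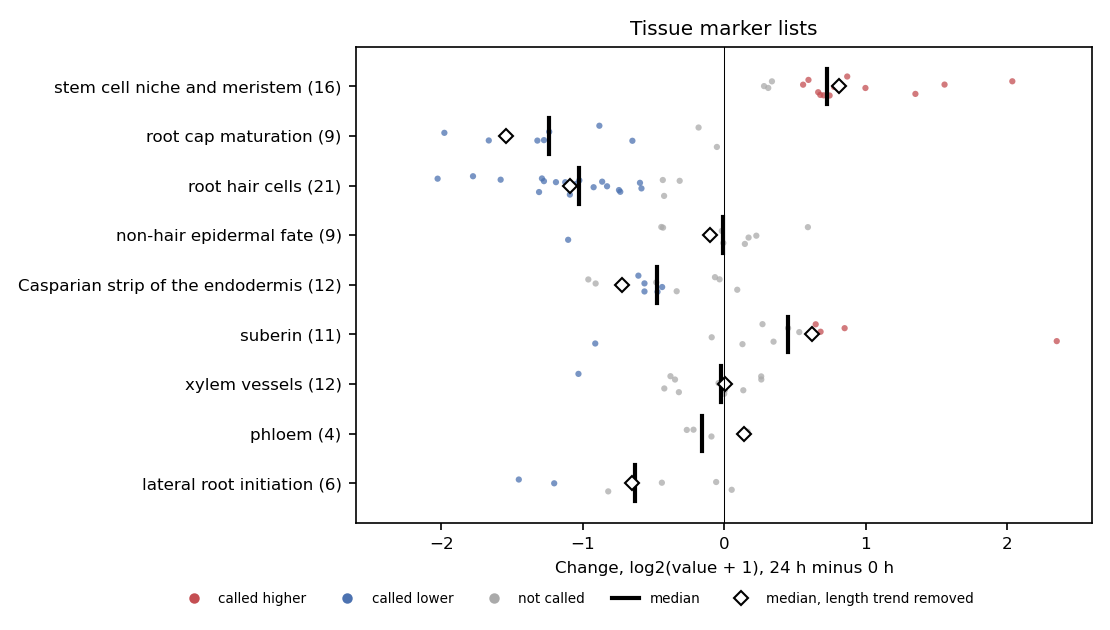
Change in log2(value + 1), 24 h minus 0 h (x axis), of each used member of 9 tissue marker lists (y axis, number used in brackets), coloured by call, with the list's median before (bar) and after (diamond) removal of the length trend. All 16 genes of the niche and meristem list lie right of 0, and all 21 root hair genes and all 9 root cap genes lie left of it.

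Most ribosomal protein genes rose. Among these genes, selected by product name, 279 of 302 were called higher (92.4%) and 3 lower (0.993%), with a median change of 1.25, which was 0.77 with the trend removed. In members from 1000 to below 3000 bp, 137 of 150 members (91.3%) were called higher, against 23.3% of all genes of that length. Where the product name held a small subunit label, 112 of 119 were called higher, and with a large subunit label 157 of 172. Among all genes used the share was 23.8%. A name can hold both labels or neither, and organelle proteins are included. AT5G24490, annotated as a 30S ribosomal protein, had 38.5 at 24 h and 3.16 at 0 h, a change of 3.25. The members called lower were AT5G47940, AT5G19025 and AT5G15260, singled out after their values were seen, with changes of -1.23, -0.84 (q = 0.01304, authors' deposited table) and -0.48 (q = 0.0368, authors' deposited table). Ribosomal proteins form families of near-identical genes, so reads may be divided between copies.

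Most factors that build ribosomes in the nucleolus rose too, and 13 of 15 were called higher (86.7%) and 0 lower (0%), with a median change of 0.78, which was 0.94 with the trend removed. FIB1 had 212 at 24 h and 78.8 at 0 h, a change of 1.42. FIB2, the other fibrillarin gene, had 257 at 24 h and 113 at 0 h. NOP56, a partner of fibrillarin, had 169 at 24 h and 83.1 at 0 h. NAP57, a pseudouridine synthase of ribosomal RNA, had 134 at 24 h and 62.9 at 0 h. In all 13 called nucleolar genes the 6 h value lay between those at 24 h and 0 h, against 77.3% of all called genes.

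Most mitosis and cytokinesis genes rose as well, and 17 of 20 were called higher (85%) and 0 lower (0%), with a median change of 1.02, which was 0.93 with the trend removed. All 20 had a positive change, between 0.48 and 1.66. AUR3, an Aurora kinase, had 6.06 at 24 h and 1.23 at 0 h, a change of 1.66. CDKB2;2, a mitotic kinase, had 12.8 at 24 h and 4.84 at 0 h. CDC20.1, an activator of the anaphase-promoting complex, had 21.8 at 24 h and 9.07 at 0 h. SYP111, the cell plate syntaxin KNOLLE, had 32.6 at 24 h and 13.9 at 0 h. CDC20.1 and SYP111 share 20.6% and 28.4% of their stretches with another gene. In all 17 called genes the 6 h value lay between those at 24 h and 0 h, against 77.3% of all called genes. For DNA replication genes 8 of 15 were called higher (53.3%) and 0 lower (0%), with a median change of 0.52, which was 0.71 with the trend removed. TSO2, a subunit of ribonucleotide reductase, had 68.7 at 24 h and 28.4 at 0 h, a change of 1.25. PCNA1, the sliding clamp of DNA polymerase, had 49.7 at 24 h and 20.99 at 0 h. PCNA2, its close copy, had 44.9 at 24 h and 18.7 at 0 h (q = 0.0287, authors' deposited table), and 16.6% of its stretches also occur in another gene.

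For histone genes 31 of 39 were called higher (79.5%) and 0 lower (0%), with a median change of 1.09, which was 0.55 with the trend removed. Of those under 1000 bp, 26 of 29 members (89.7%) were called higher, against 42% of all genes of that length. HTR12, the centromeric histone H3, had 12.5 at 24 h and 3.03 at 0 h, a change of 1.74. HTA8, a histone H2A, had 54.97 at 24 h and 15.98 at 0 h. Kinesins split by member, with 6 called higher and 11 lower. MRH2, a kinesin of root hair growth, had 5.58 at 24 h and 17.9 at 0 h. ZWI, a kinesin of trichome growth, had 24.9 at 24 h and 64.95 at 0 h. For inhibitors of the cell cycle 5 of 9 were called higher (55.6%) and 0 lower (0%), with a median change of 0.49, which was 0.22 with the trend removed. ICK6, the kinase inhibitor KRP3, had 7.305 at 24 h and 2.18 at 0 h. KRP6, of the same family, had 13.8 at 24 h and 4.73 at 0 h. LGO, a gene of endoreduplication, had 124 at 24 h and 52.7 at 0 h, and 28.1% of its stretches also occur in another gene.

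Many genes of the expanding wall fell. Among extensins and proline-rich wall proteins 2 of 33 were called higher (6.06%) and 20 lower (60.6%), with a median change of -0.80, which was -0.97 with the trend removed. EXT4, a structural wall glycoprotein, had 20.5 at 24 h and 411 at 0 h, a change of -4.26. AT1G23720, a long extensin-like gene, had 493 at 24 h and 1642 at 0 h. AT3G28550, of the same type, had 717 at 24 h and 2253 at 0 h. In all 22 called genes of this list the 6 h value lay between those at 24 h and 0 h, against 77.3% of all called genes. AT5G13140, an Ole e 1 and extensin family gene, was a called rise and had 7.17 at 24 h and 1.76 at 0 h. CESA1, of the primary wall cellulose synthase complex, had 134 at 24 h and 323 at 0 h, a change of -1.26. CESA6, of the same complex, had 71.3 at 24 h and 211 at 0 h, a change of -1.55. In all 5 cellulose synthase genes the 6 h value lay between the others, again against 77.3% of all called genes.

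For XTH genes, whose enzymes cut and join xyloglucan, 6 of 25 were called higher (24%) and 11 lower (44%), with a median change of -0.31, which was -0.65 with the trend removed. XTH17 had 149.9 at 24 h and 582 at 0 h, a change of -1.95. XTH19 had 148 at 24 h and 552 at 0 h. XTH2, on the other side, had 18.8 at 24 h and 1.81 at 0 h, a change of 2.82. For expansins, which loosen walls, 8 of 22 were called higher (36.4%) and 7 lower (31.8%), with a median change of 0.27, which was 0.02 with the trend removed, and the 4 called genes with the largest changes were falls. EXPA8 had 1.44 at 24 h and 27.7 at 0 h, a change of -3.56. EXLA2, an expansin-like gene, had 7.44 at 24 h and 56.1 at 0 h. EXPA14 had 16.8 at 24 h and 63.7 at 0 h. EXPB1, of the beta group, had 61.9 at 24 h and 179 at 0 h.

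For arabinogalactan and fasciclin-like proteins, glycoproteins of the cell surface, 9 of 45 were called higher (20%) and 19 lower (42.2%), with a median change of -0.10, which was -0.60 with the trend removed. FLA15 had 29.5 at 24 h and 92.4 at 0 h. FLA13 had 53.3 at 24 h and 149 at 0 h. AGP30, a root arabinogalactan protein, had 986 at 24 h and 261 at 0 h, a change of 1.92. For class III peroxidases, which act on wall phenolics, 9 of 48 were called higher (18.8%) and 18 lower (37.5%), with a median change of -0.23, which was -0.48 with the trend removed. AT2G39040 had 50.3 at 24 h and 221 at 0 h, a change of -2.11. AT3G01190, the most abundant of the named peroxidases at 0 h, had 725 at 24 h and 2077 at 0 h. AT2G38380, also a peroxidase, had 216 at 24 h and 59.1 at 0 h, a change of 1.85.

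Most water channel and sulfur deficiency genes fell. For aquaporins, the water channels, 2 of 22 were called higher (9.09%) and 13 lower (59.1%), with a median change of -0.74, which was -0.91 with the trend removed. In the plasma membrane (PIP) group 8 of 11 were called lower, and in the tonoplast (TIP) group 4 of 5. PIP1;4 had 40.5 at 24 h and 209.8 at 0 h, a change of -2.34. PIP2;4 had 172 at 24 h and 537 at 0 h. PIP2;8, from the same group, had 5.62 at 24 h and 0.901 at 0 h, a change of 1.8. For sulfur deficiency genes 0 of 10 were called higher (0%) and 7 lower (70%), with a median change of -1.15, which was -1.38 with the trend removed, and all 10 had a negative change. SULTR1;2, the root sulfate importer, had 66.7 at 24 h and 212 at 0 h, a change of -1.66, with 229 at 6 h. APR3, an enzyme of sulfate reduction, had 50.8 at 24 h and 149 at 0 h. ATSDI1, a gene induced when sulfur is short, had 3.23 at 24 h and 11.9 at 0 h.

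For phosphate starvation genes 0 of 14 were called higher (0%) and 8 lower (57.1%), with a median change of -0.73, which was -0.88 with the trend removed. SQD2, which makes sulfolipid when phosphate is short, had 34.3 at 24 h and 146 at 0 h, a change of -2.06. MGDC, a galactolipid synthase known as MGD3, had 2.07 at 24 h and 9.71 at 0 h. RNS1, a secreted ribonuclease, had 1.83 at 24 h and 9.04 at 0 h, with 21.2 at 6 h. For iron deficiency genes 0 of 12 were called higher (0%) and 5 lower (41.7%), with a median change of -0.29, which was -0.39 with the trend removed. BTS, a ubiquitin ligase of the iron response, had 8.28 at 24 h and 28.96 at 0 h, a change of -1.69. bHLH39, an activator of iron uptake genes, had 4.37 at 24 h and 13.8 at 0 h.

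Nitrate response genes split, and 4 of 16 were called higher (25%) and 10 lower (62.5%), with a median change of -0.69, which was -0.66 with the trend removed. NIA1, a nitrate reductase, had 1.88 at 24 h and 15.2 at 0 h, a change of -2.49. NIA2, the other nitrate reductase, had 30.5 at 24 h and 133 at 0 h, with 133 at 6 h. NIR1, the nitrite reductase, had 77.2 at 24 h and 197 at 0 h, with 210.3 at 6 h. NIA2 and NIR1 were thus near or above their 0 h value at 6 h. BT2, a BTB and TAZ domain protein of nitrogen use, had 105 at 24 h and 11.4 at 0 h, a change of 3.1.

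Most genes known from carbon starvation rose. Of 19 on that list 17 had a row and 15 were used, and 12 of 15 were called higher (80%) and 1 lower (6.67%), with a median change of 1.15, which was 1.35 with the trend removed. AT3G15450, of the aluminium-induced protein type, had 1448 at 24 h and 54.6 at 0 h, a change of 4.70. SEN1, a marker of senescence and darkness, had 10.1 at 24 h and 0.443 at 0 h, a change of 2.95. DIN10, of the raffinose synthase family, had 238 at 24 h and 62.2 at 0 h. MCCA, an enzyme of leucine breakdown, had 19.5 at 24 h and 5.85 at 0 h. The called fall was BGAL4, singled out after its value was seen, a galactosidase gene that had 78.5 at 24 h and 169.5 at 0 h. The growth medium held 1% sucrose at each time, per the labels.

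Hypoxia and fermentation genes had no common direction, and 1 of 6 was called higher (16.7%) and 3 lower (50%), with a median change of -0.75, which was -0.89 with the trend removed. AT4G33070, the pyruvate decarboxylase gene PDC1, had 1.53 at 24 h and 26.9 at 0 h, a change of -3.46. ERF73, a hypoxia response factor, had 8.89 at 24 h and 2.66 at 0 h, a change of 1.43. For touch and wounding genes 8 of 10 were called higher (80%) and 0 lower (0%), with a median change of 1.38, which was 1.19 with the trend removed. AT1G76640, a calmodulin-like gene, had 136 at 24 h and 10.2 at 0 h, a change of 3.62. CML38, another of that type, had 45.5 at 24 h and 4.2 at 0 h. WRKY40, a factor induced by wounding, had 75.03 at 24 h and 9.54 at 0 h. At 6 h they stood at 10.2, 4.91 and 19.3. TCH3, a calmodulin-like gene induced by touch, had 55.2 at 24 h and 14.02 at 0 h and stood at 45.7 at 6 h. For wound and regeneration factors of the ERF type 2 of 6 were called higher (33.3%) and 0 lower (0%), with a median change of 0.09, which was -0.04 with the trend removed. RRTF1, which is ERF109, had 16.1 at 24 h and 2.01 at 0 h (q = 0.000951, authors' deposited table), and 53.7% of its stretches also occur in another gene.

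For WRKY factors, regulators of defence and stress, 13 of 51 were called higher (25.5%) and 19 lower (37.3%), with a median change of -0.10, which was -0.15 with the trend removed. WRKY38 had 27.2 at 24 h and 2.39 at 0 h, a change of 3.06. WRKY60 had 2.77 at 24 h and 11.6 at 0 h. For heat shock proteins 11 of 54 were called higher (20.4%) and 10 lower (18.5%), with a median change of 0.11, which was 0.02 with the trend removed, shares below the background in both directions. AT5G51440, an HSP20-like gene, had 1.95 at 24 h and 7.85 at 0 h. For glutathione transferases, which conjugate glutathione to reactive compounds, 2 of 29 were called higher (6.9%) and 20 lower (69%), with a median change of -0.80, which was -1.09 with the trend removed. GSTU25 had 191 at 24 h and 1489 at 0 h, a change of -2.96. GSTU19, of the same tau class, had 627 at 24 h and 2862 at 0 h. For pathogenesis-related and salicylate genes 2 of 7 were called higher (28.6%) and 1 lower (14.3%), with a median change of -0.34, which was -0.14 with the trend removed. NPR3, a salicylate receptor, had 30.7 at 24 h and 16.8 at 0 h. NIMIN1, a protein that binds NPR1, had 4.11 at 24 h and 0.377 at 0 h (q = 0.0461, authors' deposited table).

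Most jasmonate genes rose, and 11 of 13 were called higher (84.6%) and 0 lower (0%), with a median change of 1.11, which was 1.08 with the trend removed. JAZ10, a repressor of jasmonate signalling that the hormone induces, had 32.3 at 24 h and 4.93 at 0 h, a change of 2.49. JAZ7, of the same family, had 6.97 at 24 h and 0.264 at 0 h (q = 0.019, authors' deposited table). VSP1, a storage protein gene, had 10.8 at 24 h and 1.53 at 0 h. Only 3 of the 11 called genes had a 6 h value between those at 24 h and 0 h, against 77.3% of all called genes. The median change of the list at 6 h was -0.20.

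Most auxin response genes fell, and 0 of 11 were called higher (0%) and 7 lower (63.6%), with a median change of -1.0, which was -1.19 with the trend removed. IAA14, an Aux/IAA repressor that auxin induces, had 14.8 at 24 h and 45.3 at 0 h, a change of -1.55. IAA1, of the same family, had 18.1 at 24 h and 44.5 at 0 h, with 56.5 at 6 h. GH3.1, an enzyme that conjugates auxin, had 1.96 at 24 h and 6.04 at 0 h, with 20.12 at 6 h. The last pair stood above their 0 h value at 6 h. Auxin transporters split, and 3 of 10 were called higher (30%) and 3 lower (30%), with a median change of 0.05, which was 0.37 with the trend removed. LAX2, an influx carrier, had 7.68 at 24 h and 1.795 at 0 h, a change of 1.64. ABCB4, a transporter of the outer root tissues, had 48.05 at 24 h and 209 at 0 h, a change of -2.10. AUX1, the main influx carrier of the root, had 45.6 at 24 h and 83.95 at 0 h.

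For type-A response regulators, which cytokinin induces, 0 of 10 were called higher (0%) and 7 lower (70%), with a median change of -0.78, which was -0.90 with the trend removed. ARR6 had 11.99 at 24 h and 40.2 at 0 h, a change of -1.66, and 18.3% of its stretches also occur in another gene. RR5, which is ARR5, had 12.4 at 24 h and 33.3 at 0 h. For gibberellin genes 7 of 10 were called higher (70%) and 0 lower (0%), with a median change of 0.59, which was 0.67 with the trend removed. GA20OX2, an enzyme of synthesis, had 7.61 at 24 h and 1.03 at 0 h, a change of 2.08. RGL3, a DELLA repressor, had 4.46 at 24 h and 0.959 at 0 h. GID1A, a receptor, had 9.44 at 24 h and 4.84 at 0 h. For brassinosteroid genes 1 of 9 was called higher (11.1%) and 6 lower (66.7%), with a median change of -0.66, which was -0.47 with the trend removed. CPD, an enzyme of synthesis, had 14.01 at 24 h and 5.26 at 0 h, a change of 1.26. DWF4, also of synthesis, had 13.6 at 24 h and 27.3 at 0 h, a change of -0.95. For abscisic acid response genes 2 of 11 were called higher (18.2%) and 6 lower (54.5%), with a median change of -0.56, which was -0.49 with the trend removed. LTI78, which is RD29A, had 10.1 at 24 h and 30.98 at 0 h, a change of -1.52. ERD10, a dehydrin, had 119 at 24 h and 300.3 at 0 h. KIN1, a cold and stress gene, had 42.7 at 24 h and 16.5 at 0 h.

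**Figure D4:**
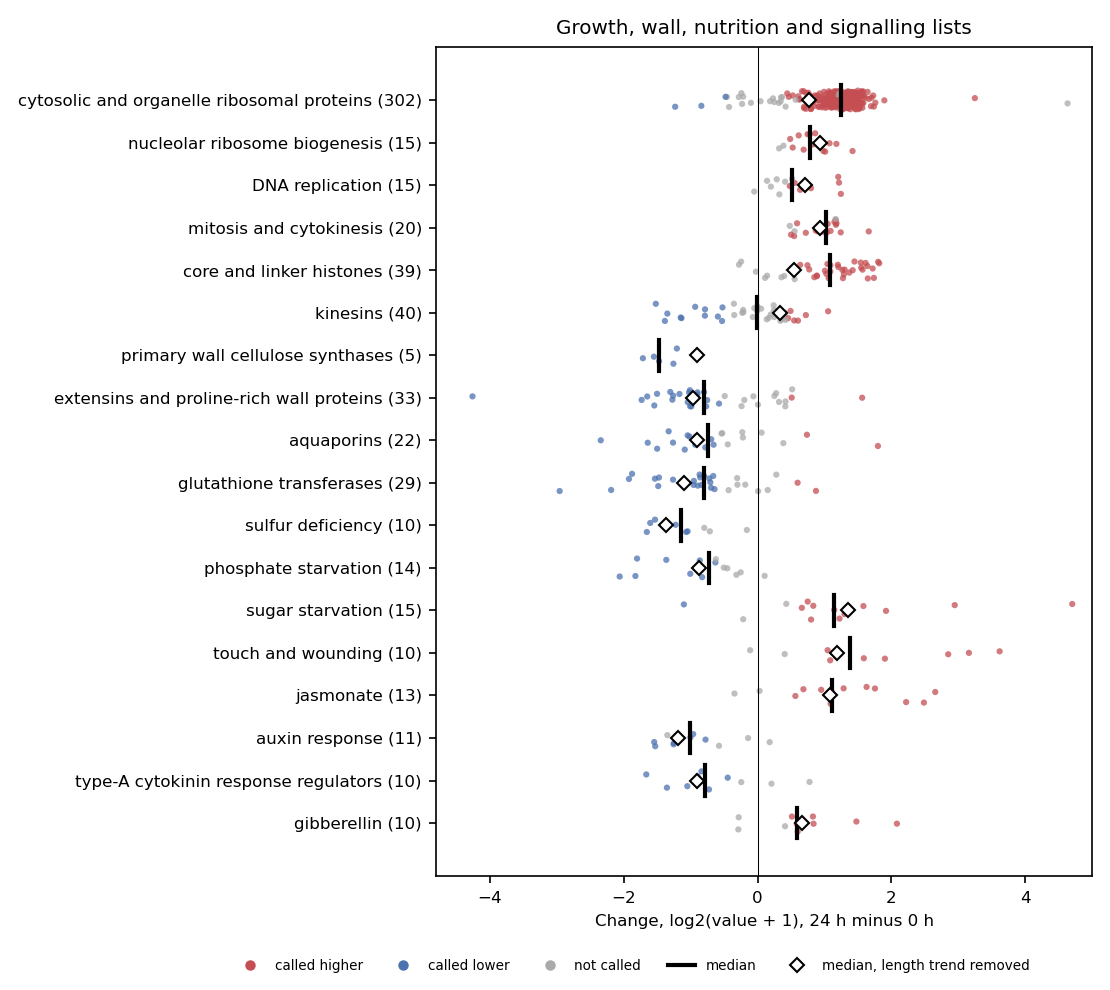
Change in log2(value + 1), 24 h minus 0 h (x axis), of each used member of 18 lists (y axis, number used in brackets), coloured by call, with the list's median before (bar) and after (diamond) removal of the length trend. Ribosomal protein genes centre on 1.25 before and 0.77 after removal, and primary wall cellulose synthases on -1.47 and -0.91.

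In the list of PAN and its TGA relatives 1 of 10 was called higher (10%) and 6 lower (60%), with a median change of -0.80, which was -0.61 with the trend removed. PAN itself was the call in the higher direction. TGA7 had 12.05 at 24 h and 40.3 at 0 h, a change of -1.66. TGA4 had 17.8 at 24 h and 52.1 at 0 h. TGA10 had 12.5 at 24 h and 29.6 at 0 h. At 6 h they stood at 36.8, 48.4 and 24.8, nearer to their 0 h values. Of the promoters of these 10 genes, 0 held TGACG in the window searched, against 24.1% of all. With 10 promoters this is too few to show a lack. For circadian clock genes 0 of 8 were called higher (0%) and 3 lower (37.5%), with a median change of -0.40, which was -0.38 with the trend removed. GI, a scaffold of the clock, had 6.49 at 24 h and 33.4 at 0 h, a change of -2.20.

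Photosynthesis genes named in the list were low at 0 h. CAB1, a chlorophyll-binding protein, had 42.9 at 24 h and 12.4 at 0 h, a change of 1.71. RBCS1A, the small subunit of Rubisco, had 12.8 at 24 h and 2.99 at 0 h. LHCA2, an antenna protein, had 4.703 at 24 h and 0.803 at 0 h. Among all genes used, 23.8% were called higher and 23.8% lower. Of 35 plastid-encoded rows used 9 were called higher (25.7%) and 4 lower (11.4%), with a median change of 1.19. Of 14 mitochondrion-encoded rows 2 were called higher (14.3%) and 0 lower (0%), with a median change of 0.39. These rows had no length in the reference used, so no trend was removed. Libraries were made from polyadenylated RNA, and how far that captures organelle transcripts was not tested.

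Among cupins, a fold shared by germin-like wall proteins, 9 of 22 were called higher (40.9%) and 4 lower (18.2%), with a median change of 0.27, which was -0.15 with the trend removed. AT1G50590 had 18.4 at 24 h and 0.742 at 0 h, a change of 3.48, with 24.3 at 6 h. AT1G18980 had 59.8 at 24 h and 179 at 0 h, and 51.1% of its stretches also occur in another gene. Among major latex protein-like genes 1 of 6 was called higher (16.7%) and 2 lower (33.3%), with a median change of 0.45, which was 0.00 with the trend removed. MLP328 had 32.98 at 24 h and 1.89 at 0 h, a change of 3.56. MLP34 had 186 at 24 h and 580.4 at 0 h. ABCI16, of the ABC transporters, had 9.19 at 24 h and 1.34 at 0 h, a change of 2.12. AT3G46400, of the receptor kinases, had 1.68 at 24 h and 13.8 at 0 h, a change of -2.47. RPN1A, a regulatory subunit of the proteasome, had 53.2 at 24 h and 80.7 at 0 h (q = 0.00441, authors' deposited table). AT5G61310, a cytochrome c oxidase Vc gene, had 78.7 at 24 h and 25.4 at 0 h. AT3G18510, annotated as a helicase or nuclease subunit, had 45.2 at 24 h and 16.3 at 0 h.

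Among called genes of known length and above 0 at both times, those with the largest rises after removal of the trend, after PAN and AT3G15450, were of diverse annotation. EARLI1, a lipid transfer-like protein, had 34.9 at 24 h and 0.389 at 0 h, a change of 4.69 (q = 0.00795, authors' deposited table). ATCTH, a zinc finger gene, had 44.2 at 24 h and 1.54 at 0 h, a change of 4.15. GAT1_2.1, a glutamine amidotransferase-like gene, had 214 at 24 h and 12.1 at 0 h, a change of 4.04, and 36.98% of its stretches also occur in another gene. OSM34, an osmotin, had 21.9 at 24 h and 0.299 at 0 h, a change of 4.14 (q = 0.00148, authors' deposited table). AT5G66650, annotated as a calcium uniporter, had 32.03 at 24 h and 3.01 at 0 h, a change of 3.04. At 3922 bp it falls in the class where 4.41% of genes were called higher, and its trend-removed change was 3.52. AT3G19200, uncharacterized, had 44.1 at 24 h and 1.73 at 0 h, a change of 4.04. BT2 and AT1G50590 closed the first 10. Among transcripts under 1000 bp OXS3, of the response to oxidative stress, had 92.9 at 24 h and 6.37 at 0 h, a change of 3.67. Among those of 3000 bp or more AT4G06477, uncharacterized, had 5.91 at 24 h and 0.131 at 0 h, a change of 2.61.

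Among the same genes, the largest falls after removal of the trend were led by EXT4. AT3G02242, annotated as a root meristem growth factor-like peptide gene, had 2.85 at 24 h and 45.4 at 0 h, a change of -3.59. AT4G08555, uncharacterized, had 19.7 at 24 h and 239 at 0 h, a change of -3.54. EXPA8, GSTU25 and AT4G33070 also stood among the first 10. AT5G46890, a lipid transfer-like gene, had 355 at 24 h and 2799 at 0 h, a change of -2.98. AT5G46900, of the same type, had 456 at 24 h and 2556 at 0 h, a change of -2.48. They share 18.9% and 15.7% of their stretches with another gene, so reads may be divided between copies. AT2G31540, a GDSL lipase gene with 25.2% shared, had 1.25 at 24 h and 19.01 at 0 h. AT2G43590, of the chitinase family, had 27.2 at 24 h and 198 at 0 h. Among transcripts of 3000 bp or more the first 3 were NIA1, AT1G08592 and AT2G28960. AT1G08592, a noncoding RNA, had 7.597 at 24 h and 40.5 at 0 h, and all of its stretches also occur in another gene. AT2G28960, a receptor kinase gene, had 5.99 at 24 h and 32.5 at 0 h.

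**Figure D5:**
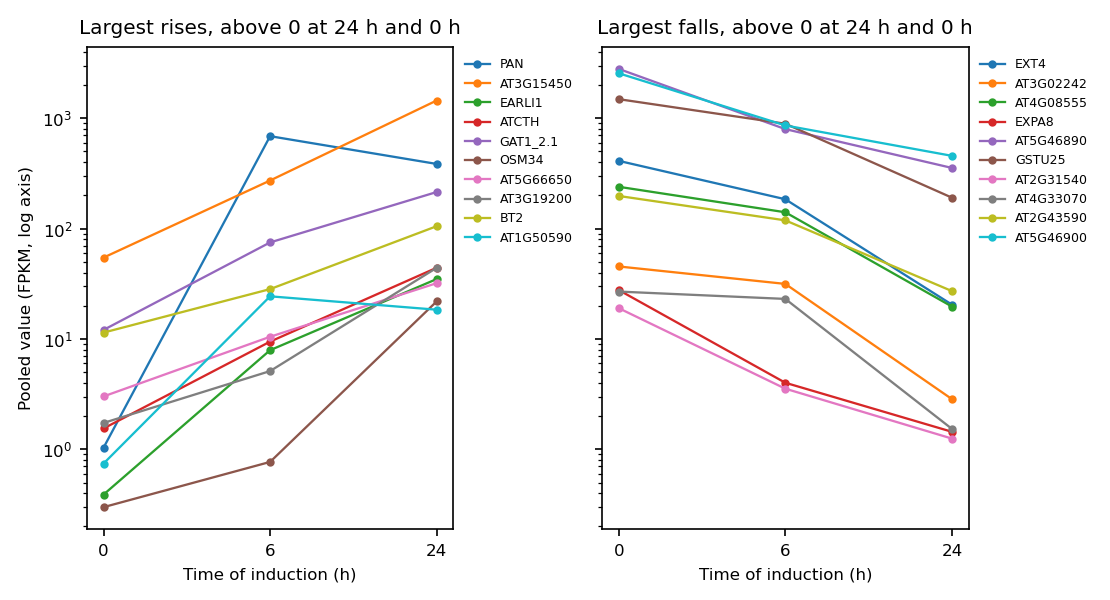
Pooled FPKM values (y axis, log scale) at 0, 6 and 24 h of induction (x axis), for called genes above 0 at both 24 h and 0 h, on the left the 10 that rose most after removal of the length trend and on the right the 10 that fell most. PAN and AT1G50590 stand higher at 6 h than at 24 h, at 688 and 24.3, whereas the other 8 rises and all 10 falls are farthest from their 0 h value at 24 h.

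Of the called genes, 9 were listed at 0 at 24 h or at 0 h, and no fold is given for them. AT5G38910, a cupin gene, stood at 65.2 at 24 h while its 0 h entry was 0. ATCG00760, a plastid gene, and AT3G48344 were listed at 0 at 24 h, and stood at 44.3 and 18.7 at 0 h; the first had q = 0.0112 in the authors' deposited table. A listed 0 can be a failed estimate, since 5 genes with at least 10 at 6 h and at 1 of the compared times were listed at 0 at the other. These 5 include AT5G38910 itself, so the argument rests on the others, which were not called. Next to the filter, 43 of 202 genes with a mean from 1 to below 1.1 had a q-value under 0.05 in the authors' deposited table, and 32 of 203 with a mean from 0.9 to below 1. The nearest gene inside was GSL04, with 0.529 at 24 h and 1.33 at 0 h. XK-1, just outside, had 1.78 at 24 h and 0.593 at 0 h.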

How the data were processed

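Polyadenylated RNA of 9 root samples was sequenced from strand-specific libraries, with single-end reads of 100 bp length, per the labels' protocols. The submitters' processing notes name TopHat2 2.0.13, Cufflinks 2.1.1, Cuffdiff and the build TAIR10, without roles. The authors deposited 1 pooled value per row and time, taken as FPKM from the values themselves, and, per the file headers, log2 fold changes and q-values. The log2 fold changes deposited by the authors were not used in any result. Read depth is not known from these values. Replicates were not available singly, so the q-values could not be recomputed, and the labels call them biological replicates without saying which cultures or plants they came from.

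Changes in log2(value + 1), with a pseudocount of 1, were computed with Python 3.11.15, numpy 2.4.6 and pandas 2.3.3. Names, lengths and promoters came from RefSeq TAIR10.1, with a length for 17501 of the genes used. The code that removes the length trend was run on simulated data, which does not show how well the removal serves the real values. A stretch of 100 bases was counted as shared where the longest transcript of a different gene held it on either strand. Whether counting used the strand is not given in the sources used here, so overlapping, antisense and near-identical genes are uncertain.

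The comparison and its 54 lists, 32 typed by hand and 22 by product name, symbol or locus prefix, were chosen with earlier results of these data known. Genes named are PAN, the 10 largest trend-removed rises and falls and the 3 largest per length class among called genes above 0 at both times, the called members of each list with the largest changes (up to 4) or its most abundant member where none was called, the 3 highest called genes listed at 0, and the promoter examples. Tissue markers, members not called and genes next to the filter were named beside these. Alternatives were other q-value limits, filters, pseudocounts, scalings and length measures.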

Additional observations from a re-analysis of the deposited data

How the results depend on the processing

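The number of called genes, 8504, fell to 3178 (1685 higher, 1493 lower) with a minimum change of 1. It was 6375 at a q-value limit of 0.01, 6902 with a mean of at least 5, and 9046 with p-values recovered from the q-values and adjusted within the comparison. The median change of the longest 25% of genes minus that of the shortest 25% was -0.81, and -0.79 by coding length. Among genes with a mean of at least 10 it was -1.03. Whether the trend of all genes serves abundant genes equally well was not tested. Of 54 list medians, those that changed sign with the length trend removed were xylem (0.00458), phloem (0.14), wound ERF factors (-0.0416), kinesins (0.33), proteasome (-0.0196), respiratory chain (-0.10) and cupins (-0.15). Under quantile normalization they were non-hair fate (0.0352), heat shock proteins (-0.0175) and helicases (-0.12), the last also under median-of-ratios scaling (-0.0425). Phloem turned to 0.0608 without a filter, and expansins to -0.17 with a mean of at least 5. No list median changed sign with a pseudocount of 0.1, but a pseudocount cannot change the sign of a single gene. Beyond the subtraction that removes the length trend, the cause was not tested. Among the 212 named genes, none that was called changed sign under another scaling, or with the trend removed where a length was known. Most of these were named for a large change, which leaves little room for a change of sign. Of all called genes, 8504 kept their sign under quantile normalization and under median-of-ratios scaling. With the trend removed, 8215 of 8379 called genes with a length did so. No paired analysis was possible because the deposited values pool the replicates, and fits that leave out a replicate were not run for the same reason. Depth, which limits low genes, is unknown.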
